A study of Mus musculus with 7 samples.

Results

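Foxp3 is the transcription factor that defines regulatory T cells (Tregs). It was examined here with 9 transcription factors that work beside it or shape the same cells, namely Runx1, Runx3, Cbfb, Satb1, Bach2, Foxo1, Foxo3, Foxp1 and Myb. The 10 genes were taken by gene symbol out of 47729 genes in the count files, and all 10 had enough reads to be tested. Splenic CD4+CD25+ cells of wild-type (WT) mice were profiled by RNA-sequencing in 3 aged libraries, from mice of 18 months, and 4 young libraries, from mice that the sample labels put at 8 weeks and the study's methods at 10 weeks. The methods name male C57BL/6 mice, with no surgery or agent listed for these samples. Magnetic beads were used to isolate the cells, which are called Tregs below, although CD25 is also carried by activated conventional T cells. The labels call the libraries biological replicates without saying whether each came from a single animal.

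Foxp3 switches on the suppressive programme of Tregs and holds down genes of conventional T cells, and it does so in complexes with other factors. Runx1 and Runx3 bind DNA as partners of Cbfb, associate with Foxp3, and also act on regulatory elements of the Foxp3 gene itself. Satb1 folds chromatin in developing T cells and is held low by Foxp3 in mature Tregs. Bach2 represses genes of effector differentiation. Foxo1 and Foxo3 are kept out of the nucleus when Akt and Sgk1 kinases phosphorylate them, and in the nucleus they maintain genes of resting, recirculating T cells. Foxp1 supports the quiescence of naive T cells, and Myb is needed in blood progenitors, in early T cell development and in effector Tregs.

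The regulatory sequence of these genes is shown first, since the Runx genes carry an element of their own family. Promoter windows of 300 bases (250 before to 50 after the start site) were taken from RefSeq on GRCm38.p6, in which all 10 genes were matched. Windows at a start site of Runx1, of Runx3 and of their relative Runx2 share a stretch of 18 bases, shown in capitals. It holds 2 copies of ACCACA, the core letters of a Runx site. Another window of Runx1 and another of Runx3, at other start sites, had 0 matches to ACCACA. The stretch runs from base 26 to 43 after the start site in Runx1, from base 21 to 38 after it in Runx2, and from -136 to -119 before it in Runx3.
Runx1, chr16:92826025-92826054, minus strand: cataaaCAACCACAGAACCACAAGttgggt
Runx2, chr17:44814583-44814612, minus strand: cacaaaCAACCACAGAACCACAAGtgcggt
Runx3, chr4:135120503-135120532, plus strand: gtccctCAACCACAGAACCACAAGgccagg
It occurred in 4 of 32851 windows, the fourth being that of Gm16225, which overlaps the Runx3 window. By contrast ACCACA alone, searched on both strands, was in 16.8% of all windows and in 2 of the 19 windows of the 10 genes, those of Runx1 and Runx3. Of the RefSeq start sites of Foxp3, the one shown here has the letters of a TATA box, in capitals, at -32 in the 100 bases before it.
Foxp3, chrX:7579576-7579675, plus strand: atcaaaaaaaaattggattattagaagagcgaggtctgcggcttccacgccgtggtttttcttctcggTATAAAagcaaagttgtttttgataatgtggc
TATAAA was in 13.6% of all windows and in 1 of the 19. A forkhead core, GTAAACA, was in 1 of the 19, a window of Myb, against 3.65% of all windows. The AP-1 letters TGACTCA, which Bach2 can also bind, were in 0 of the 19 against 5.2%. These matches are letters only, and no binding was measured.

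Each library held 10734234 to 13649310 reads counted on genes, the young libraries all being deeper than the aged ones. Levels are given below in CPM, the reads of a gene scaled to the depth of its library by TMM, and levels of different genes as RPKM, which also divides by exon length. Mitochondrial genes took 5.08% to 10.7% of counts in aged libraries and 2.63% to 3.23% in young ones. Haemoglobin genes took 1.24% to 13.1% across all libraries, without separating the ages. Markers of Tregs summed to 2865 to 3387 CPM in aged libraries and 2176 to 3569 CPM in young libraries, and 1 of 8 passed the test. Markers of T cells summed to 2614 to 2869 CPM and 2438 to 3062 CPM. Of these 8 markers, 1 rose (Cd3e) and 1 fell (Cd5). Cd3e held in 2 of 7 fits with a library left out, and Cd5 in 1 of 7. B cell markers were also present, at 954.9 to 1805 CPM in aged and 1466 to 2274 CPM in young libraries. In bulk RNA, fewer cells of a type and less RNA per cell cannot be told apart.

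In aged Tregs, 6 of the 10 genes were lower than in young Tregs, 0 were higher, and 4 did not pass the test (edgeR quasi-likelihood test, Benjamini-Hochberg adjusted p under 0.05). Satb1, Myb and Bach2 fell by more than 2-fold, and Foxo1, Foxp1 and Cbfb fell by 1.29- to 1.5-fold. Foxp3, Runx1, Runx3 and Foxo3 were not called. Over all 13904 genes tested, 16.7% were called, 6.94% as lower and 9.8% as higher in aged Tregs, which is 965 lower and 1362 higher genes. With each library's trends in GC content and gene length removed, that split turned to 1482 lower and 1193 higher, and the 6 calls of the 10 genes held. Of the 10 genes, 3 were called without aged replicate 3, and 4 without young replicate 1, 3 or 4. Over all genes, those fits called 1262, 1315, 1270 and 1237 in the same order. Satb1, Bach2 and Myb were called in each of them. The median log2 fold change was -0.45 for the 10 genes and 0.019 for all genes tested. Aged and young libraries did not overlap for 7 of the 10 genes, 6 with aged below young and 1, Runx3, with aged above young. Over all genes tested 29.9% did not overlap, 14.4% with aged below and 15.5% with aged above young. For these 7 genes the exact two-sided permutation test gave p = 0.0571, which is the smallest p that 3 against 4 libraries allow.

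**Figure D1:**
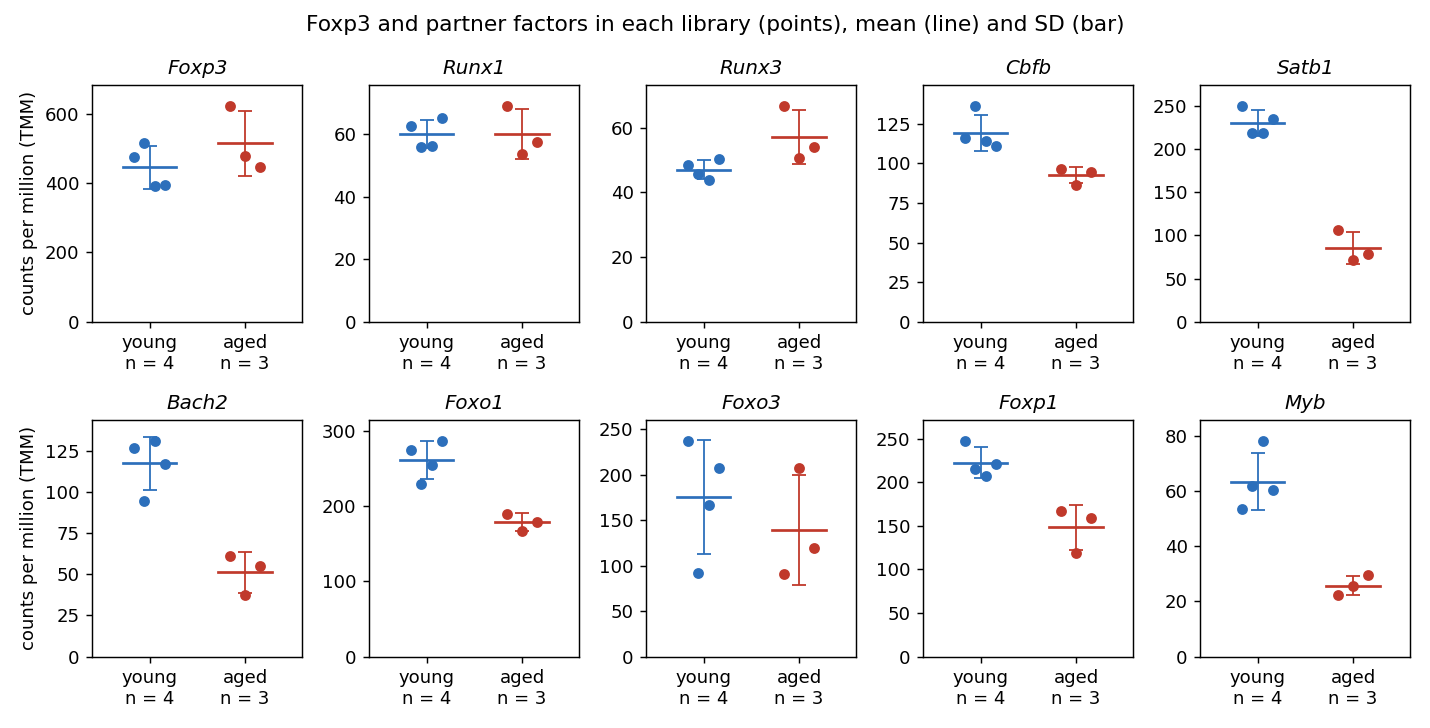
Level of each of the 10 genes, in CPM on a linear axis that starts at 0, in the 3 aged and 4 young libraries. Each point is a library, each line the mean of an age and each bar 1 SD to either side. Aged libraries lie below all young libraries for Satb1, Bach2, Myb, Foxo1, Foxp1 and Cbfb, and the ages overlap for Foxp3, Runx1 and Foxo3.

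Foxp3 itself (ENSMUSG00000039521, chrX:7573644-7595245 in GENCODE M21 on GRCm38) was the most abundant of the 10. Its level was 621, 477 and 446 CPM in aged replicates 1 to 3, and 476, 517, 393 and 395 CPM in young replicates 1 to 4. The ages overlapped, with the highest value in aged replicate 1. Aged libraries averaged 515 ± 93.1 CPM (SD, n = 3) against 445 ± 61.7 CPM (SD, n = 4) for the young. Foxp3 had a log2 fold change of 0.21 and a standard error of 0.16 (edgeR adjusted p = 0.409), a difference within the spread between replicates. It ranged from 0.048 to 0.30 over the alternatives, and in none of them was Foxp3 called. Other annotated genes, among them the antisense RNA Flicr and Ccdc22, overlap 31.5% of the Foxp3 exon length, where reads may have been set aside as ambiguous.

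The genes whose pattern over the 7 libraries was closest to that of Foxp3 were sought among 9422 genes by the root mean square difference of centred log2 CPM. They were Tnfrsf26 (0.0472), Cep162 (0.0645) and 1810032O08Rik (0.0699). Like Foxp3, each was highest in aged replicate 1, and none was called.

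Of Runx1, Runx3 and their shared subunit Cbfb, only Cbfb was called, and differences between the 3 genes were not tested. Runx1 (ENSMUSG00000022952, chr16:92601466-92826149) was at 68.9, 53.6 and 57.6 CPM in aged and 62.5, 56, 56.4 and 65.1 CPM in young libraries. The aged values ran both above and below all young values, and the means were 60 ± 7.94 (SD, n = 3) and 60 ± 4.53 CPM (SD, n = 4). Its log2 fold change was 0.001 with a standard error of 0.111 (adjusted p = 0.996), and its sign changed with the scaling (-0.085 with size factors from T cell genes).

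Runx3 (ENSMUSG00000070691, chr4:135120652-135177990) was at 66.5, 50.6 and 54.1 CPM in aged libraries and 48.3, 45.5, 43.8 and 50.4 CPM in young libraries. The ages did not overlap, but aged replicate 2 and young replicate 4 lay side by side. The log2 fold change was 0.28 with a standard error of 0.113, and it did not pass the test (adjusted p = 0.127, range 0.0877 to 0.434 over the alternatives).

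Cbfb (ENSMUSG00000031885, chr8:105170674-105217989), the subunit that stabilises Runx proteins on DNA, was at 96.4, 86.7 and 94.8 CPM in aged libraries and 116, 136, 114 and 111 CPM in young libraries. Every aged library was below every young library. It fell by 0.36 on the log2 scale with a standard error of 0.101 (adjusted p = 0.0431). This was the least firm of the 6 calls. It held without aged replicate 1 and was lost when any of the other 6 libraries was left out, with the adjusted p between 0.0149 and 0.169 over the alternatives.

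Runx2, the relative that shares the promoter stretch, was higher in aged Tregs. It was at 38.9, 30.2 and 48.3 CPM in aged and 20.1, 17.6, 19.3 and 15.1 CPM in young libraries. The ages did not overlap, and the log2 fold change was 1.12 with a standard error of 0.174 (adjusted p = 0.00495). The call held with each of the 7 libraries left out. Of 8 genes tested among Runx2 and members of corepressor families that act with Runx proteins, 1 rose (Runx2) and 2 fell, with a median log2 fold change of -0.20. Those that fell were Cbfa2t3 (-0.98, adjusted p = 0.0179) and Aes (-0.50, adjusted p = 0.0194), both members of these families. Without aged replicate 3 or young replicate 4, neither was called, and Cbfa2t3 was also lost without young replicate 1 or 3. Of 7 tested genes known to be regulated by Runx factors in T cells, 1 rose (Itgae), 1 fell (Zbtb7b, which encodes the CD4 lineage factor ThPOK) and the median was 0.39.

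Satb1 (ENSMUSG00000023927, chr17:51736187-51833290) had the largest fall of the 10 genes. It was at 106, 71.3 and 78.6 CPM in aged libraries and 249, 218, 218 and 234 CPM in young libraries. The highest aged library, at 106 CPM, was far below the lowest young library, at 218 CPM. The means were 85.1 ± 18 (SD, n = 3) and 230 ± 15.1 CPM (SD, n = 4), a 2.7-fold fall with a log2 fold change of -1.43 and a standard error of 0.148 (adjusted p = 0.00114). Of all genes tested, 1.29% had a lower log2 fold change. Satb1 was called under all 20 alternatives, between -1.62 and -1.32.

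Among the genes closest to Satb1 in pattern over the 7 libraries, of the same 9422 genes, were Sgk1 (root mean square difference 0.0937) and Themis (0.135), which encodes a signalling protein of developing thymocytes. Both fell, with log2 fold changes of -1.52 and -1.25. Of 6 tested genes known as targets of Satb1, 0 rose and 2 fell, Zbtb7b and Rag1, with a median of -0.53. Rag1, a recombinase gene of lymphocyte precursors, was at 0.0872, 7.34 and 0.747 CPM in aged and 22.7, 15.4, 76.9 and 30.8 CPM in young libraries. In aged replicate 1 that is 1 count, below the limit of detection of 3 counts, which makes the size of the fall inexact. Rag1 values spread widely within each age. Its call (-3.78, standard error 1.01, adjusted p = 0.0376) was lost without aged replicate 1 or 3 and without young replicate 1, 3 or 4, as well as with limma voom and with a minimum of 10 counts in every library. Zbtb7b (-0.71, adjusted p = 0.0184) was lost without aged replicate 3, young replicate 1 or young replicate 4.

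Bach2 (ENSMUSG00000040270, chr4:32238804-32586108) was at 61.4, 37.4 and 55.4 CPM in aged libraries and 127, 94.8, 131 and 117 CPM in young libraries. The ages were well apart, with the lowest value of each age in replicate 2. The means were 51.4 ± 12.5 (SD, n = 3) and 117 ± 16.1 CPM (SD, n = 4), a 2.28-fold fall. Its log2 fold change was -1.19 with a standard error of 0.186 (adjusted p = 0.00502), and it was called under all 20 alternatives.

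Of 12 genes that Bach2 is known to repress, 4 rose, 1 fell and 7 did not pass the test. The median log2 fold change was 0.57, beside 0.019 for all genes tested. Itgae, which encodes the CD103 integrin chain of tissue-homing Tregs, was at 174, 165 and 201 CPM in aged and 56.4, 57.6, 46.7 and 33.4 CPM in young libraries. It rose 3.71-fold, with a log2 fold change of 1.89 and a standard error of 0.185 (adjusted p = 0.000898). Prdm1, which encodes the effector factor Blimp-1, was at 58, 37.9 and 53.8 CPM in aged libraries and 20.2, 36.1, 15.1 and 15.6 CPM in young libraries. Its ages did not overlap, although young replicate 2 came close to aged replicate 2 (log2 fold change 1.20, adjusted p = 0.0326). Young replicate 2 also had the most plasma cell transcripts of all libraries, at 2120 CPM. The sums were 415.6, 606 and 515.9 CPM in young replicates 1, 3 and 4, and 875.9, 1121 and 1425 CPM in aged libraries. Prdm1 is on that marker list as well. The part of plasma cell transcripts in the Prdm1 result was not tested. Il12rb1, a cytokine receptor subunit, rose by 0.62 (adjusted p = 0.0083), and Il1rl1, the receptor of IL-33, by 0.65 (adjusted p = 0.0498). Ccr9, a gut homing receptor gene that dendritic cells also express, fell by 1.90 (adjusted p = 0.00125). Itgae, Il12rb1 and Ccr9 were called with each of the 7 libraries left out. With 1 library left out, Prdm1 held only without aged replicate 2 or young replicate 2, and Il1rl1 only without aged replicate 3. Of 13 other alternatives, Prdm1 held in 12 and Il1rl1 in 6.

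Among the forkhead factors, Foxo1 and Foxp1 fell. Foxo1 (ENSMUSG00000044167, chr3:52268336-52353221) was at 190, 167 and 179 CPM in aged libraries and 275, 229, 254 and 286 CPM in young libraries. Every aged library was below every young one. The fall was 1.46-fold, with a log2 fold change of -0.55 and a standard error of 0.111 (adjusted p = 0.014). The call was lost without aged replicate 3 (adjusted p = 0.0543), and the adjusted p ranged from 0.000164 to 0.103 over the alternatives.

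Foxp1 (ENSMUSG00000030067, chr6:98925338-99522721) was at 167, 119 and 159 CPM in aged libraries and 247, 215, 207 and 221 CPM in young libraries. The ages did not overlap. The fall was 1.5-fold, with a log2 fold change of -0.58 and a standard error of 0.136 (adjusted p = 0.0235). The call was lost without aged replicate 3 (0.0566), young replicate 1 (0.0655), young replicate 3 (0.0504) or young replicate 4 (0.0621), in a range of 0.00092 to 0.103 over the alternatives.

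Foxo3 (ENSMUSG00000048756, chr10:42181841-42276755) was at 90.4, 207 and 120 CPM in aged and 237, 92.3, 167 and 208 CPM in young libraries. The ages overlapped across nearly their whole range. The log2 fold change was -0.34 with a standard error of 0.356 (adjusted p = 0.554), and it moved from -0.74 without aged replicate 2 to -0.11 without aged replicate 1. Its coefficient of variation between replicates was 43.5% in aged and 35.7% in young Tregs, the largest of the 10 genes in each age.

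The lowest Foxo3 values, in aged replicate 1 and young replicate 2, were in the libraries with the fewest erythroid transcripts. Erythroid markers summed to 13199, 160700 and 81316 CPM in aged libraries and 119699, 12602, 63620 and 62824 CPM in young libraries. Red cell precursors are known to express Foxo3. Over the 7 libraries Foxo3 went with the log2 of this sum at Pearson r = 0.864 (exact permutation p = 0.027, adjusted p = 0.081 over 3 genes) and Spearman rho = 0.643 (exact permutation p = 0.139, adjusted p = 0.417). The erythroid markers were named after their values were seen, so these p-values describe the pattern above and do not test it. Without aged replicate 1 and young replicate 2, r was 0.397 over 5 libraries, so the relation rested on those libraries, whose removal also narrows the range of the erythroid sum. The same relation was r = -0.603 for Foxp3 and -0.361 for Runx1 (adjusted exact permutation p = 0.298 and 0.364). Without the same 2 libraries, r turned to 0.927 for Foxp3 and was -0.433 for Runx1. With 3 and 4 libraries per age, r was not given within an age. In aged libraries Foxo3 and the erythroid sum had the same order, and in young libraries the lowest and the highest of both were in the same libraries. With the erythroid level as a covariate, an alternative that was added after seeing the data, the Foxo3 difference was -0.39 (adjusted p = 0.0972, range 0.0972 to 0.854 over the alternatives) and the other 9 genes kept 6 calls.

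**Figure D2:**
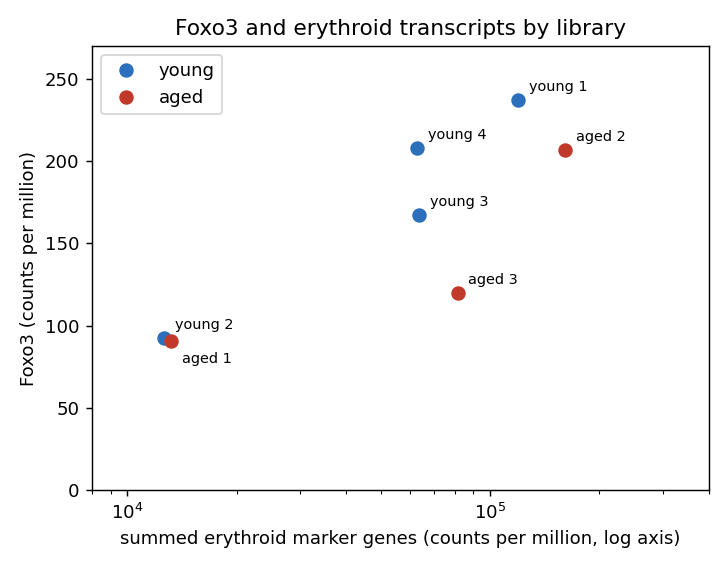
Foxo3 level in CPM against the summed level of erythroid markers in CPM on a log axis, with 1 labelled point per library. Aged replicate 1 and young replicate 2 lie at the lower left, with 90.4 and 92.3 CPM of Foxo3.

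Of 18 tested genes that Foxo factors are known to regulate, 7 fell and 0 rose, with a median log2 fold change of -0.19. Klf2, the factor that keeps T cells recirculating, was at 125, 122 and 116 CPM in aged and 294, 328, 160 and 291 CPM in young libraries. The ages did not overlap, at a log2 fold change of -1.15 (adjusted p = 0.0123). Ccr7 (-0.77) and S1pr1 (-0.81) encode the receptors for entry into and exit from lymph nodes, Bcl2l11 (-0.90) encodes the death factor Bim, Sesn1 (-0.71) is a stress-response gene, and Cited2 (-0.69) encodes a transcriptional coregulator. S1pr1 and Bcl2l11 were called with each library left out. Without aged replicate 3, Klf2, Ccr7, Sesn1 and Cited2 were not called. Ccr7 was also lost without aged replicate 2 or young replicate 1, Sesn1 without young replicate 1, and Cited2 without aged replicate 2 or young replicate 4.

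Of 16 kinases, 14-3-3 adaptors and other proteins that control Foxo location or turnover, 2 fell and 0 rose, with a median of -0.15. Sgk1, a kinase that phosphorylates Foxo proteins, was at 15.3, 9.55 and 9.9 CPM in aged and 33.9, 34.8, 31.1 and 33.6 CPM in young libraries. The ages were far apart, at a log2 fold change of -1.52 with a standard error of 0.178 (adjusted p = 0.00158), and the call held with each library left out. Pdpk1, which encodes the kinase that activates Akt and Sgk1, fell by 0.44 (adjusted p = 0.0423), but was called in 1 of 7 fits with a library left out, that without aged replicate 1. Phosphorylation was not measured.

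The other forkhead genes numbered 40, of which 10 were tested and 13 had no read in any library. Of these 10, 2 fell and 0 rose, with a median of -0.23. Foxn3, a repressor, was at 46.3, 20.5 and 33.5 CPM in aged and 88, 74.9, 75.7 and 62 CPM in young libraries (log2 fold change -1.16, adjusted p = 0.017). Foxk1, a factor of metabolic control, was at 111, 77.8 and 82.2 CPM in aged and 148, 142, 136 and 135 CPM in young libraries (-0.64, adjusted p = 0.0154). Neither gene's ages overlapped, and neither was called without aged replicate 3. Foxp4, a relative of Foxp1, averaged 84.1 ± 4.09 CPM (SD, n = 3) with age against 90.4 ± 5.88 CPM (SD, n = 4) in the young and was not called (adjusted p = 0.459).

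Myb (ENSMUSG00000019982, chr10:21124935-21160984) was at 22.2, 25.6 and 29.4 CPM in aged libraries and 53.6, 61.8, 78 and 60.2 CPM in young libraries. The ages were far apart, and young replicate 3 was the highest. The means were 25.8 ± 3.59 (SD, n = 3) and 63.4 ± 10.3 CPM (SD, n = 4), a 2.46-fold fall. Its log2 fold change was -1.30 with a standard error of 0.154 (adjusted p = 0.00162), and it was called under all 20 alternatives, between -1.40 and -1.18. Rag1, Kit and Vpreb3, genes of immature blood cells, were also highest in young replicate 3. Kit was at 14.6, 8.44 and 12 CPM in aged and 24.3, 28.1, 37 and 27.5 CPM in young libraries. The progenitor markers, of which Kit is the only 1 that fell and Hlf the only 1 that rose among 4 tested, summed to 14.98 to 21.63 CPM in aged and 29.31 to 45.96 CPM in young libraries. Their part in the Myb result was not tested. Without young replicate 3, Myb was still called. In that fit the progenitor sums of the ages remained apart, so it cannot decide their part.

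Of 6 tested genes known as Myb targets, 3 fell and 0 rose, with a median of -0.55. They were Bcl2 (-0.56, adjusted p = 0.015), which protects cells from death, the growth regulator Myc (-0.71, adjusted p = 0.0189) and the receptor gene Kit (-1.32, adjusted p = 0.00604). Kit held with each library left out, while Bcl2 was lost without aged replicate 3 and Myc without aged replicates 2 or 3 or young replicates 1 or 4. Of 6 tested relatives of Myb, Bach2 and Satb1 and of the small Maf partners of Bach proteins, 0 passed the test in either direction.

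**Figure D3:**
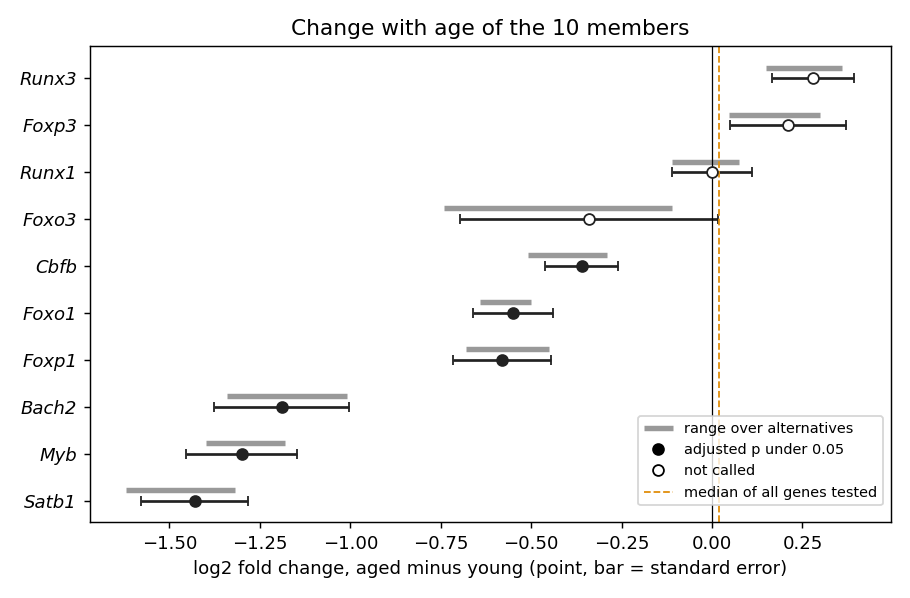
Log2 fold change of aged against young Tregs for the 10 genes from edgeR, with bars of 1 standard error. Filled points passed the test and open points did not. Satb1 (-1.43), Myb (-1.30) and Bach2 (-1.19) lie farthest below 0, and Runx3 (0.28) and Foxp3 (0.21) lie above 0 without passing the test.

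Per length, Foxp3 stood above the other 9 genes in every library of both ages, with 112 ± 20.3 RPKM (SD, n = 3) for the aged and 97.3 ± 13.5 RPKM (SD, n = 4) for the young Tregs. Cbfb followed at 26.6 ± 1.49 and 34.2 ± 3.23 RPKM, and Foxo1 at 20.6 ± 1.34 and 30.1 ± 2.89 RPKM. In young Tregs the order then ran Foxo3, Foxp1, Satb1, Bach2, Runx3, Myb and Runx1. In aged Tregs it ran Foxo3, Runx3, Foxp1, Bach2, Runx1, Satb1 and Myb. Satb1 was thus at 12.1 ± 0.792 RPKM, above Bach2 (11.8 ± 1.62 RPKM) by less than the spread, in young Tregs. In aged Tregs it was at 4.47 ± 0.948 RPKM, below Runx1 (4.99 ± 0.66 RPKM) by less than the spread. Neighbours whose libraries overlapped in young Tregs were Cbfb with Foxo1, Foxo1 with Foxo3, Foxo3 with Foxp1, Satb1 with Bach2, and Bach2 with Runx3. In aged Tregs they were Foxo1 with Foxo3, Foxo3 with Runx3, Runx3 with Foxp1, Bach2 with Runx1, and Runx1 with Satb1.

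**Figure D4:**
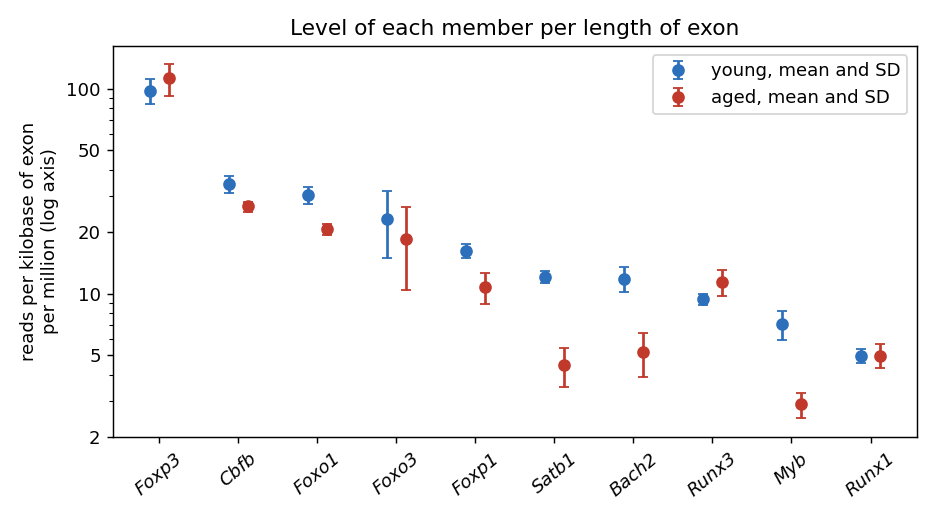
Level per exon length (RPKM, log axis) of the 10 genes in aged and young Tregs, as means with bars of 1 SD over the libraries of an age. Foxp3 is at the top of both ages, and Satb1 and Myb are lower.

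Of 40 further transcriptional regulators known in Tregs, all tested, 1 rose, 6 fell and 33 were not called, with a median of -0.093. The share called was 17.5%, beside 16.7% of all genes tested, and with DESeq2 14 of the 40 were called. Stat3, the factor downstream of IL-6 and IL-10, rose by 0.49 (adjusted p = 0.0169). Lef1, an HMG box factor of naive T cells, was at 48.6, 53.9 and 47.7 CPM in aged and 107, 123, 104 and 105 CPM in young libraries. The ages were far apart, and its adjusted p of 0.000617 (log2 fold change -1.13) was below that of Satb1. Its relative Tcf7 fell by 0.43 (adjusted p = 0.0235), the chromatin remodeller Chd4 by 0.63 (0.00802), Ets1 by 0.57 (0.0398), Ikzf1 by 0.54 (0.0239) and the TGF-β mediator Smad2 by 0.49 (0.0293). Lef1 and Chd4 held with each library left out. Without aged replicate 3 the other 5 were all lost, which left 2 calls, and with library size as the only scaling Stat3, Ets1, Ikzf1 and Smad2 were lost. The 7 calls became 3 without young replicate 1, 3 or 4, and 13 without aged replicate 1.

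Of 20 genes of the Treg signature, which Foxp3 and its partners help to set, 5 rose, 2 fell and 13 were not called, with a median of 0.36. Tigit, an inhibitory receptor, was at 161, 140 and 185 CPM in aged and 49.4, 74.6, 48.8 and 44.7 CPM in young libraries (log2 fold change 1.58, adjusted p = 0.00162). Gpr83, an orphan receptor, was at 54.9, 78.6 and 39.8 CPM in aged and 203, 222, 172 and 159 CPM in young libraries (-1.71, adjusted p = 0.00274). Neither overlapped between ages. Itgae rose as above, and so did the costimulatory receptors Icos (0.92) and Tnfrsf9 (0.81) and the ectoenzyme gene Nt5e (0.65), with adjusted p of 0.0221, 0.027 and 0.0318. Lrrc32, which encodes the TGF-β docking protein GARP, fell by 1.02 (adjusted p = 0.0083). Icos, Tnfrsf9 and Nt5e were lost without aged replicate 3 or young replicate 1, 3 or 4, and without young replicate 2 the list had 11 calls. Il2ra, which encodes CD25, the molecule used for isolation, was at 480, 333 and 326 CPM in aged and 624, 683, 535 and 470 CPM in young libraries. Its highest aged value lay just above its lowest young value, and it was not called (-0.61, adjusted p = 0.0588). Of 5 tested genes that are low in Tregs compared with conventional T cells, 2 fell and 0 rose, with a median of -0.21. They were Igfbp4 (-1.73, adjusted p = 0.00841) and Dapl1 (-2.40, adjusted p = 0.000816), both also naive T cell markers.

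Across the 12 lists, 178 distinct genes were named and 142 tested. Of these 39 (27.5%) were called, 29 lower and 10 higher, beside 16.7% of all genes tested. Without aged replicate 3, 17 were called, without young replicate 1, 23, and without young replicate 4, 24. The markers of naive T cells moved with the 6 genes that fell. Of 8 naive markers, 7 fell, with a median of -1.02, and their sum was 1252 to 1701 CPM in aged and 2146 to 2518 CPM in young libraries. Of 10 effector memory markers, 7 rose and 0 fell, with a median of 1.09, and their sum was 857.6 to 983.8 CPM in aged and 560.8 to 668.8 CPM in young libraries. Neither sum overlapped between ages. Ccr7 of the Foxo list, Lef1 and Tcf7 of the regulators and both fallen genes of the low list are among the naive markers. Neutrophil markers were also higher in part, with 4 of 10 called and sums of 722.6 to 5358 CPM in aged and 314.6 to 1005 CPM in young libraries. Of these 4 calls, Csf3r alone held without young replicate 1 or 4, and Csf3r and Retnlg held without aged replicate 1. Of 5 tested platelet markers 2 rose and 0 fell, with a median of 0.91, and their sums did not overlap, at 21.02 to 41.47 CPM in aged and 8.603 to 17.96 CPM in young libraries. Both of these calls, Ppbp and Treml1, were lost without aged replicate 3 or young replicate 1 or 3, and Treml1 also without aged replicate 2 or young replicate 2. Of 8 dendritic cell markers 4 fell and 1 rose, at 47.54 to 66.97 against 78.76 to 98.66 CPM, and of 10 macrophage markers 3 fell. The 3 macrophage calls, Csf1r, Adgre1 and Vcam1, held with each library left out. So did the falls of the dendritic cell markers Siglech, Ccr9 and Cd209a. Clec9a, which fell, held in 1 of 7 such fits, and Zbtb46, which rose, in 6 of 7. Of 10 B cell markers 1 fell (Vpreb3, a gene of B cell precursors, adjusted p = 0.0415) and 0 rose, with a median of -0.56 and sums that overlapped between ages. Vpreb3 held in 2 of 7 fits with a library left out, those without aged replicate 1 or young replicate 2. Of 8 CD8 T and NK cell markers 1 fell, Klrb1c, which was lost without aged replicate 3 or young replicate 3 or 4. Of 7 plasma cell markers 1 rose, and of 7 erythroid markers 0 were called by edgeR, and 0 had an unadjusted p under 0.05. The part of these cells in the fall of the 6 genes was not tested. With mitochondrial, immunoglobulin and haemoglobin genes removed before scaling, the 6 calls held.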

How the data were processed

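RNA-sequencing of splenic CD4+CD25+ cells was analysed in 3 aged and 4 young libraries. The authors deposited raw read counts per Ensembl gene for each library, and a table for the series. The deposited signal in that table was made by dividing each count by a size factor of the library, and it was checked that 100% of its values give back the whole read count, to within 0.01 of a read plus 0.01% of the count. Its columns of the authors' log2 fold change, standard error, test statistic, p-value and adjusted p-value, and its mean over samples, were not used. The submitters' processing notes name the build mm10. The aligner and annotation are not given in the sources used here, and the counting layout carries the names of union mode without strand, in which a read on overlapping genes is set aside as ambiguous. Reads not assigned to a single gene (13.1% to 20.9% per library) were left out. The cDNA, made with a SMART-Seq v4 kit, carries no molecular identifiers. A limit of detection of 3 counts covers counting error only.

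Symbols came from the deposited table for 25469 genes and from the reference table for 21898 more. Coordinates and exon lengths are from GENCODE M21 on GRCm38, and promoters from RefSeq. Counts were tested by the quasi-likelihood method of edgeR 4.0.16 (R 4.3.3; TMM, filterByExpr by group, no covariate) with Benjamini-Hochberg adjustment over 13904 genes. A gene was called with an adjusted p under 0.05, and p-values set the age difference against the spread between these libraries. The study's methods name limma for differential expression, and limma 3.58.1 was an alternative here, as was DESeq2 1.42.0, since the deposited values are counts. Means are ± SD. Replicates differed by more than sampling noise.

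The 10 genes, the lists of related genes and the alternatives were chosen with earlier results of these data known. Named are the 10 genes, the called genes of each list and the 3 genes nearest in pattern to Foxp3 and to the gene of the 10 with the smallest adjusted p, among genes with a mean log2 CPM of at least 3. Rag1, Kit and Il2ra were described by library, and Foxp4 and the erythroid markers named, after their values were seen. Results of some genes that meet this rule are not reported here.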

Additional observations from a re-analysis of the deposited data

How the results depend on the processing

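The direction of the 6 calls was kept under all alternatives. Satb1, Bach2 and Myb were called in each of them. The 6 genes were all called with DESeq2, limma voom, limma-trend, RLE and T cell gene scaling, a minimum of 10 counts per library, thinning, and the GC and length correction, while library size only and no filter gave 5. Requiring a fold of at least 1.5 left 3, as Foxp1, at 1.5-fold after rounding, lay just below the limit. With 1 library left out, 3 to 6 of the 10 genes, 1237 to 3058 of all genes and 17 to 44 genes of the lists were called. Of 192 list counts under alternatives, 143 were within 1.5 times the main count. DESeq2 called 14 of the 40 further regulators (7 with edgeR) and 4 Satb1 targets (2 with edgeR). For Runx1, which was not called, the log2 fold change changed sign with DESeq2 (-0.022), limma voom (-0.0019), limma-trend (-0.0045), RLE (-0.0057), library size only (-0.058), T cell gene scaling (-0.085) and no filter (-0.022), and ranged from -0.11 to 0.075 with 1 library left out. The cause was not tested. The labels do not say whether the replicate numbers pair the samples. Deviations from the mean of the age correlated at -0.0915, -0.292 and -0.138 in same-numbered libraries. Between libraries of different numbers they correlated at -0.241 to 0.227. These values cannot decide whether samples were paired, since deviations cancel out within an age. With the replicate number as a block, 292 genes, 3 of the 10 genes (Satb1, Bach2 and Myb) and 9 list genes were called. The number of replicates, 3 against 4, limits the precision, and every aged library was shallower than every young library. Thinning all libraries to the smallest total left the 6 calls in place.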

Other observations

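Some genes outside the calls varied between libraries as Foxo3 did. They were chosen after their values were seen, and no test was made. Foxo4, another Foxo gene, measured 54.9, 133 and 88 CPM in the aged libraries (replicates 1 to 3) and 111, 52.7, 83 and 92.4 CPM in young replicates 1 to 4. Cat, which encodes the antioxidant enzyme catalase and is a known Foxo target, was at 91.4, 679 and 255 CPM in aged and 531, 147, 338 and 376 CPM in young libraries. Gadd45a, a growth arrest gene, was at 17, 63.5 and 32.9 CPM and 45.1, 10.5, 29.6 and 48 CPM. Mafg, a small Maf partner of Bach proteins, was at 42, 94.6 and 53.1 CPM and 64.4, 26.2, 46 and 55.8 CPM. In each of these genes the lowest value of each age was in aged replicate 1 and young replicate 2, the libraries with the fewest erythroid transcripts, and the highest aged value was in aged replicate 2. None was called between ages, with adjusted p of 0.832 for Foxo4, 0.983 for Cat, 0.855 for Gadd45a and 0.465 for Mafg (edgeR).

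Among the Treg signature genes, Ctla4, an inhibitory receptor gene, was at 828, 638 and 834 CPM in aged and 389, 719, 325 and 257 CPM in young libraries. Young replicate 2 lay above aged replicate 2, and Ctla4 was not called (log2 fold change 0.86, adjusted p = 0.103).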
